A study of Homo sapiens with 12 samples.

Results

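Heparan sulfate proteoglycans are core proteins that carry long sulfated sugar chains, and 10 of their core protein genes were followed here among the 23368 genes of the count table. They were chosen by name: the 4 syndecans SDC1, SDC2, SDC3 and SDC4, the glypicans GPC1, GPC3, GPC4 and GPC6, and the basement membrane proteoglycans perlecan (HSPG2) and agrin (AGRN). All 10 were listed in the table, and the rule used their names alone, although the set was proposed with earlier results of these data known. Messenger RNA was sequenced from MDA-MB-231 cells, an established estrogen receptor negative breast cancer line of basal type, and from T47D cells, an established estrogen receptor positive line of luminal type. Both were encapsulated as single cells in a synthetic poly(ethylene glycol) hydrogel with a cell-degradable crosslinker. The hydrogel presented either GFOGER, a peptide that mimics collagen, or IKVAV, a peptide that mimics laminin, and RNA was taken on day 3 in all conditions after the gels were digested with collagenase. Each replicate pooled 3 gels. The libraries with counts were 3 GFOGER and 2 IKVAV replicates of MDA-MB-231, and 3 of either peptide for T47D. The remaining MDA-MB-231 IKVAV replicate, which the authors left out for poor read mapping, was not analysed here. Nothing in the labels says that replicates came from separate cultures, so p-values measure the spread between these libraries only.

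Syndecans span the plasma membrane, bind matrix proteins and growth factors through their sugar chains, and connect to the cytoskeleton through short cytoplasmic tails. Glypicans are attached to the outer membrane by a lipid anchor and take part in Wnt, Hedgehog and fibroblast growth factor signaling. Perlecan and agrin are large secreted proteins of the basement membrane, where they bind laminin. In mammary epithelium syndecan-1 is the typical syndecan.

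Libraries held 14338238 to 18452145 reads on genes. A gene with 3 counts corresponded to 0.168 to 0.201 cpm, the count scaled to library size. Floors and intervals given here reflect the counting error of pooled reads alone and leave out the spread between replicates. PCR copies of a molecule were not told apart, so the counting error itself may be larger. The cell lines matched their labels: the summed level of VIM, AXL, CAV1, MSN and ZEB1 was 3283 to 5706 cpm in MDA-MB-231 libraries and 8.39 to 11.3 cpm in T47D libraries, and the summed level of 8 luminal genes was 193 to 232 cpm and 6082 to 7000 cpm. Replicate pairs varied 2.51 to 18.6 times as much as counting noise alone would give, and each pair above 10 times involved MDA-MB-231 GFOGER replicate 3 or T47D IKVAV replicate 3. T47D GFOGER replicates 2 and 3 followed at 9.92 times. MDA-MB-231 GFOGER replicate 3 differed from replicates 1 and 2 along the GC content of genes, with a median log2 difference of -0.26 among the 2331 genes of lowest GC content and 0.295 among the 2330 of highest GC content. Results that move with MDA-MB-231 GFOGER replicate 3 or T47D IKVAV replicate 3 are given with and without that library.

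Levels are given as cpm after TMM normalization, and levels of different genes are compared as cpm per kilobase of gene model. Genes are called differentially expressed where the fold change exceeded 2 and the p of the edgeR quasi-likelihood test, adjusted by Benjamini-Hochberg over all genes tested, was below 0.05, which are the thresholds of the study. Fold changes are GFOGER relative to IKVAV unless stated otherwise, and each log2 fold change is given ± its standard error (SE). The SE was derived from the edgeR test statistic and can be too small where the counts of a group are near 0. In MDA-MB-231 cells 8 of the 10 genes passed the filter on low counts, and GPC3 and GPC4 did not. In T47D cells, and when both lines were fitted together, all 10 passed.

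Upstream sequences are shown here for 4 genes of contrasting composition: SDC3 and HSPG2, which were higher in MDA-MB-231 cells, GPC4, which was higher in T47D cells, and GPC6, which was read in both lines. They are the 250 bases before the RefSeq start (GRCh38.p14), placed on GRCh37 by exact match. Of the 10 genes 7 had a RefSeq entry, and SDC2, GPC3 and AGRN had none in the table used. SDC3 lies on the minus strand at chr1:31381606-31381855, HSPG2 on the minus strand at chr1:22263804-22264053, GPC4 on the minus strand at chrX:132549518-132549767 and GPC6 on the plus strand at chr13:93878810-93879059. Capitals mark GGGCGG (the GC box), TATAAA (the TATA box) and CAGGTG (an E-box), each searched on both strands with overlapping matches counted.
SDC3: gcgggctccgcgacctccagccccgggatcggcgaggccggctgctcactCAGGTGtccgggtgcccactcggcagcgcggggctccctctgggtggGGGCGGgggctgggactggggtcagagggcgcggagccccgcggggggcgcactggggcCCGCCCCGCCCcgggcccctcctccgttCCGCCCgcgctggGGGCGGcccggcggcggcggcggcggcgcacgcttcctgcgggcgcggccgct
HSPG2: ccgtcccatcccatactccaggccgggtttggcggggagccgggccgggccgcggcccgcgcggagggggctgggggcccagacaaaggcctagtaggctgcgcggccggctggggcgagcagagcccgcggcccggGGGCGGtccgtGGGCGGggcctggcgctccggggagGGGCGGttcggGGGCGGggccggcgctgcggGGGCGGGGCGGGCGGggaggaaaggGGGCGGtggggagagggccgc
GPC4: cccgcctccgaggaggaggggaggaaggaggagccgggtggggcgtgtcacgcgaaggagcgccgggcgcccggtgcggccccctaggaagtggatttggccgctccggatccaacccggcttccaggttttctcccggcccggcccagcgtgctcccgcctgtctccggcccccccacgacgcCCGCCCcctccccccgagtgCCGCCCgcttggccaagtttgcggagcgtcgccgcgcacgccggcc
GPC6: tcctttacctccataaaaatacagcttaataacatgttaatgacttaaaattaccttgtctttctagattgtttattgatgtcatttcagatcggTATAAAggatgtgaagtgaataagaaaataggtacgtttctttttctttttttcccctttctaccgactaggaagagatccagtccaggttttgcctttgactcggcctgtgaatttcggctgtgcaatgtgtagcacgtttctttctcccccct
Among 35116 promoters of this length, 42.6% held a GC box, 10.7% a TATA box and 17.5% the E-box, and the median number of CpG dinucleotides was 11. SDC3 held 37 CpG dinucleotides, 5 GC boxes and 1 E-box, HSPG2 held 33 and 8 GC boxes, and GPC4 held 32 and 2 GC boxes. GPC6 held 6 CpG dinucleotides, 1 TATA box and 0 GC boxes. These matches describe the letters in the window and are not binding sites.

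The levels per length had the same leading genes in every condition. SDC4, the most widely expressed syndecan and a component of focal adhesions, ranked 1 of 10 in all 4 conditions, at 141 ± 1.40 cpm per kilobase in MDA-MB-231 cells with GFOGER (SD, n = 3), 107 ± 3.67 with IKVAV (SD, n = 2), 98.1 ± 2.27 in T47D cells with GFOGER (SD, n = 3) and 94.4 ± 6.79 with IKVAV (SD, n = 3). The T47D conditions overlapped for this gene. AGRN ranked 2 in all 4 conditions, with means of 64.3 to 76.1 cpm per kilobase that differed by less than the spread of the libraries. Below these genes the order depended on the line. SDC3 ranked 3 in both MDA-MB-231 conditions and 7 or 8 in T47D cells, whereas SDC1 ranked 3 in both T47D conditions. In T47D cells with IKVAV the neighbors GPC4, SDC3 and GPC6, at 5.71 ± 0.402, 5.15 ± 0.642 and 5.01 ± 1.16 cpm per kilobase (SD, n = 3), did not differ beyond their spread. GPC3 ranked 10 everywhere, at 0.456 cpm per kilobase or less.

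**Figure D1:**
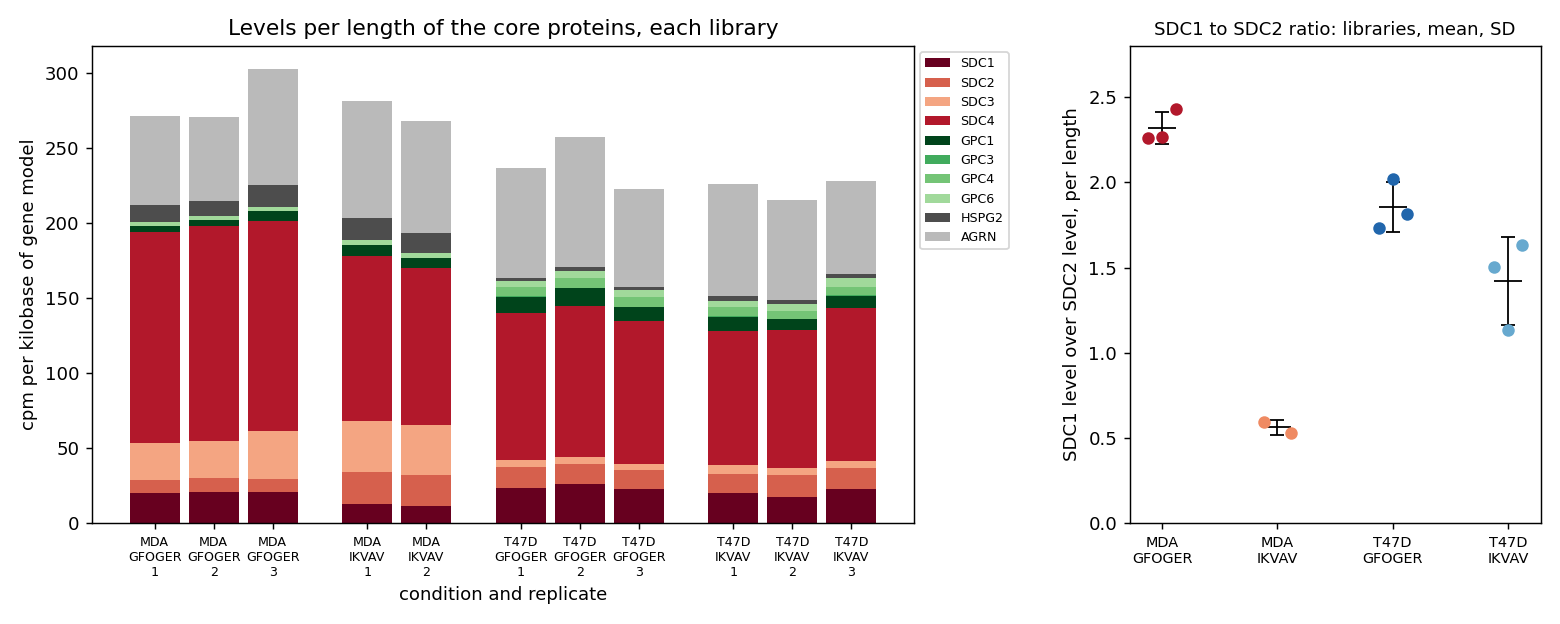
Left, level of each of the 10 core protein genes in each library as stacked bars, in cpm per kilobase of gene model. Right, the per-length level of SDC1 divided by that of SDC2 in each library (points), with the mean and SD of each condition (bars); the ratio was lowest in the MDA-MB-231 IKVAV libraries, 0.532 and 0.593, and highest in the GFOGER libraries of that line, 2.26 to 2.43.

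Syndecans made up most of the summed level of the 10 genes per length, 70.4 ± 3.39% in MDA-MB-231 cells with GFOGER (SD, n = 3), 63.4 ± 0.201% with IKVAV (SD, n = 2), 58.6 ± 2.30% in T47D cells with GFOGER (SD, n = 3) and 59.9 ± 3.13% with IKVAV (SD, n = 3). The glypican share was 2.49% to 3.83% in the MDA-MB-231 libraries and 8.04% to 9.25% in the T47D libraries, without overlap between the lines. The share of perlecan and agrin together was 24.4% to 33.0% in MDA-MB-231 libraries and 28.2% to 34.8% in T47D libraries, which overlapped. Within the basement membrane members, AGRN exceeded HSPG2 per length by 5.21 to 5.52 times in MDA-MB-231 libraries and by 21.6 to 37.7 times in T47D libraries.

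**Figure D2:**
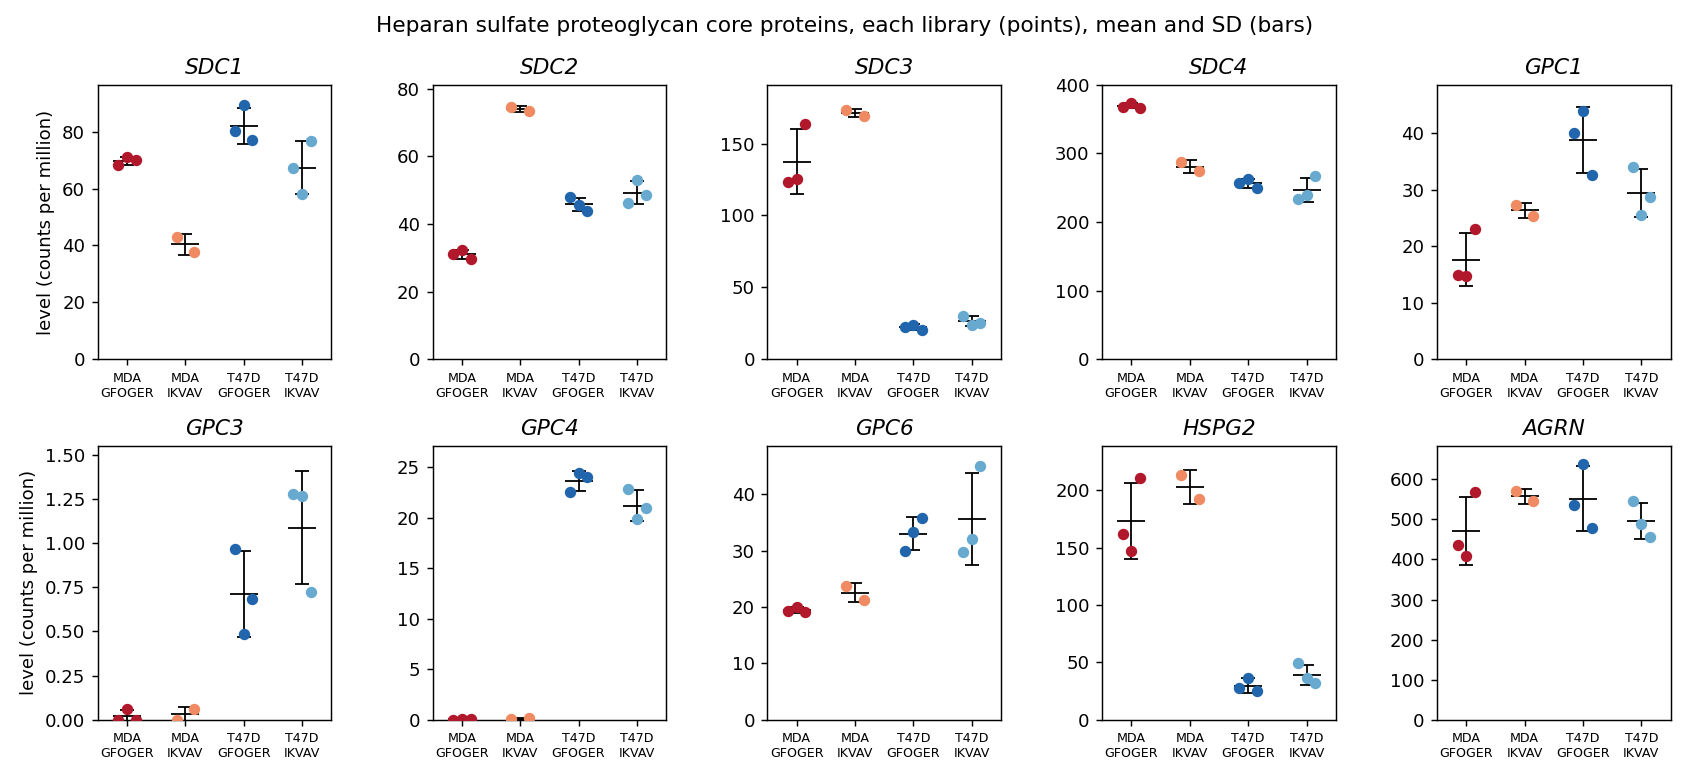
Level of each gene in each library (points) in cpm, with the mean and SD of each condition (bars), on a separate linear scale from 0 for each gene. SDC1 and SDC2 moved in opposite directions between the peptides in MDA-MB-231 cells (MDA), SDC3 and HSPG2 were higher in this line, and GPC3 and GPC4 were near 0 in it.

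To see whether MDA-MB-231 cells changed these genes between the collagen and the laminin mimic, the libraries with GFOGER were compared with those with IKVAV. SDC2 was the member that passed both thresholds, with a level in GFOGER 2.40-fold below that in IKVAV. SDC1 and SDC4 rose in GFOGER and SDC3 and GPC1 fell, each by less than 2-fold. GPC6, HSPG2 and AGRN did not pass the test. So 1 of 8 genes tested was differentially expressed, against 9.57% of all 14092 genes tested, and by direction 0 of 8 were higher against 3.12% and 1 of 8 lower against 6.46%. At any fold 5 of 8 had an adjusted p below 0.05, against 42.9% of all genes. The libraries of the peptides did not overlap for 6 of 8, against 63% of all genes. The median log2 fold change of the 8 was -0.25, against 0.00386 for all genes tested.

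SDC2, the syndecan typical of mesenchymal cells and fibroblasts, spans bases 97505882 to 97624037 of chromosome 8 (hg19). It was read in MDA-MB-231 cells at 31.2, 32.3 and 29.7 cpm in the GFOGER libraries and 74.8 and 73.4 cpm in the IKVAV libraries. Every GFOGER library was below every IKVAV library, and the gap exceeded the spread within each peptide. The log2 fold change was -1.26 ± 0.11 (SE), with an adjusted p of 1.32e-07 in edgeR's quasi-likelihood test. Leaving out each library in turn gave -1.29 to -1.24, with adjusted p from edgeR of 4.87e-23 to 3.11e-05. A test that asks whether the change itself exceeds 2-fold gave an adjusted p of 0.0957 with edgeR, so a change of over 2-fold did not pass that test. Of the fibroblast markers, 4 of 4 tested were lower in GFOGER with an adjusted p below 0.05, against 42.9% of all genes in either direction, and the summed level of the 5 listed (with COL1A1 the most abundant and 1 at 0 counts in the IKVAV libraries) was 18.6 to 22.6 cpm with GFOGER and 34.0 to 38.2 cpm with IKVAV. Markers of mesenchymal-like lines went mostly the other way: AXL, VIM, CAV1 and MSN were higher in GFOGER, with log2 fold changes of 1.42, 0.67, 0.54 and 0.52, and ZEB1 was lower at -0.40, each with an adjusted p below 0.05 by edgeR. Their summed level was 5322 to 5706 cpm with GFOGER and 3283 to 3313 cpm with IKVAV. The part of either list in the result was not tested. In bulk RNA, fewer cells with a transcript and less of it per cell cannot be told apart.

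SDC1, the syndecan typical of epithelial cells, lies on chromosome 2 from 20400558 to 20425194. Its level in MDA-MB-231 cells was 68.2, 71.0 and 69.9 cpm with GFOGER and 42.9 and 37.8 cpm with IKVAV. All GFOGER libraries were higher, opposite to SDC2, and the log2 fold change was 0.78 ± 0.11 (SE), a 1.72-fold rise, with an adjusted p of 3.67e-05 by edgeR. The per-length ratio of SDC1 to SDC2 was therefore 2.32 ± 0.0949 with GFOGER (SD, n = 3) and 0.563 ± 0.0430 with IKVAV (SD, n = 2). SDC1 was the more abundant of the pair in every GFOGER library and SDC2 in both IKVAV libraries. Of 7 tested luminal markers 2 had an adjusted p below 0.05, against 42.9% of all genes in either direction. They were CDH1 at -0.97 and ERBB3 at -0.57 on the log2 scale, both lower in GFOGER and so opposite to SDC1. CDH1 had 40 to 43 counts with GFOGER and 67 to 85 with IKVAV. The summed level of the 8 luminal markers was 193 to 232 cpm with GFOGER and 216 to 217 cpm with IKVAV, and their part in the result was not tested.

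SDC4 lies on chromosome 20 from 43953929 to 43977064. Its level was 368, 374 and 367 cpm with GFOGER and 287 and 274 cpm with IKVAV. The GFOGER libraries were all higher and lay close together. Its log2 fold change was 0.39 ± 0.083 (SE), with an adjusted p of 0.00132 by edgeR. Without IKVAV replicate 2 it was 0.36 with an adjusted p of 0.0566 by edgeR.

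SDC3, best known from the nervous system, lies on chromosome 1 from 31342313 to 31381480. It was read at 123, 125 and 164 cpm with GFOGER and 173 and 169 cpm with IKVAV. GFOGER replicate 3 lay close to the IKVAV libraries, and replicates 1 and 2 lay well below them. Its log2 fold change was -0.33 ± 0.12 (SE), with an adjusted p of 0.0308 by edgeR. Without GFOGER replicate 3 it was -0.48 with an adjusted p of 2.53e-12 by edgeR, and leaving out any other library gave -0.34 to -0.25 with adjusted p of 0.0770 to 0.182 by edgeR.

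GPC1 lies on chromosome 2 from 241375115 to 241407495 and overlaps MIR149 and PP14571 in the table, of which the highest count in any library was 273. Its level was 14.9, 14.8 and 23.0 cpm with GFOGER and 27.3 and 25.3 cpm with IKVAV. Again replicate 3 of GFOGER stood nearer to IKVAV than its replicates did. The log2 fold change was -0.59 ± 0.17 (SE), with an adjusted p of 0.0115 by edgeR. Without GFOGER replicate 3 it was -0.84 with an adjusted p of 1.79e-08 by edgeR, and without IKVAV replicate 1 or 2 the adjusted p was 0.0977 or 0.0519.

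AGRN, which clusters acetylcholine receptors at the neuromuscular junction, lies on chromosome 1 from 955503 to 991499. Its level was 436, 409 and 569 cpm with GFOGER and 570 and 545 cpm with IKVAV, and HSPG2, on chromosome 1 from 22148737 to 22263750, was read at 162, 147 and 211 cpm with GFOGER and 214 and 193 cpm with IKVAV. For both genes the peptides overlapped because of GFOGER replicate 3 alone. The log2 fold change of AGRN was -0.25 ± 0.11 (SE) with an adjusted p of 0.0842 by edgeR, and that of HSPG2 was -0.24 ± 0.12 with an adjusted p of 0.135. Without GFOGER replicate 3 they were -0.42 and -0.41, with adjusted p of 1.22e-14 and 3.16e-10 by edgeR. In that fit peptide cannot be told apart from the GC deviation of the libraries, which is given below. GPC6, on chromosome 13 from 93879078 to 95060273, was read at 19.3, 20.0 and 19.1 cpm with GFOGER and 23.8 and 21.3 cpm with IKVAV. The libraries did not overlap, yet the log2 fold change of -0.22 ± 0.13 (SE) had an adjusted p of 0.182 by edgeR.

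The members for which GFOGER replicate 3 stood apart were those of high GC content. Its log2 difference from the mean of replicates 1 and 2 was 0.40 for SDC3, 0.63 for GPC1, 0.45 for HSPG2 and 0.43 for AGRN, whose longest transcripts had a GC content of 58.7%, 66.7%, 64.5% and 67.9%. For SDC2, SDC4 and GPC6 it was between -0.094 and -0.015, with GC contents of 40.8% to 48.8%. SDC1 was the exception, with a GC content of 60.1% and a difference of 0.0063. Over all genes, the median deviation of the highest GC class minus that of the lowest, of 5 equal classes, was 0.12 and 0.11 in the IKVAV libraries, -0.24 and -0.28 in GFOGER replicates 1 and 2, and 0.28 in GFOGER replicate 3. Both IKVAV libraries thus lay between GFOGER replicate 3 and the other GFOGER libraries on this scale. In fits without GFOGER replicate 3, peptide and this GC deviation cannot be told apart. The T47D libraries were at 0.073, -0.14 and -0.15 with IKVAV and at 0.056, 0.30 and -0.13 with GFOGER. T47D GFOGER replicate 2 thus had the highest value of all libraries. Between the T47D peptides without it, 1 of 13831 genes passed both thresholds and 2 had an adjusted p below 0.05 by edgeR. With all libraries these were 3 and 6 of 13642. The part of its GC deviation in the T47D results was not tested. In a fit with GC content as an offset, chosen after the data were seen, the log2 fold change was -1.29 for SDC2, 0.94 for SDC1 and 0.41 for SDC4, and -0.34 for GPC1 and -0.19 for SDC3, with adjusted p of 3.40e-12, 9.40e-09, 5.16e-07, 0.0185 and 0.0107 by edgeR. In the same fit it was -0.021 for HSPG2 and 0.033 for AGRN, with adjusted p of 0.805 and 0.618 by edgeR. The offset also removes any peptide difference that follows GC content, so its values are not corrected estimates.

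**Figure D3:**
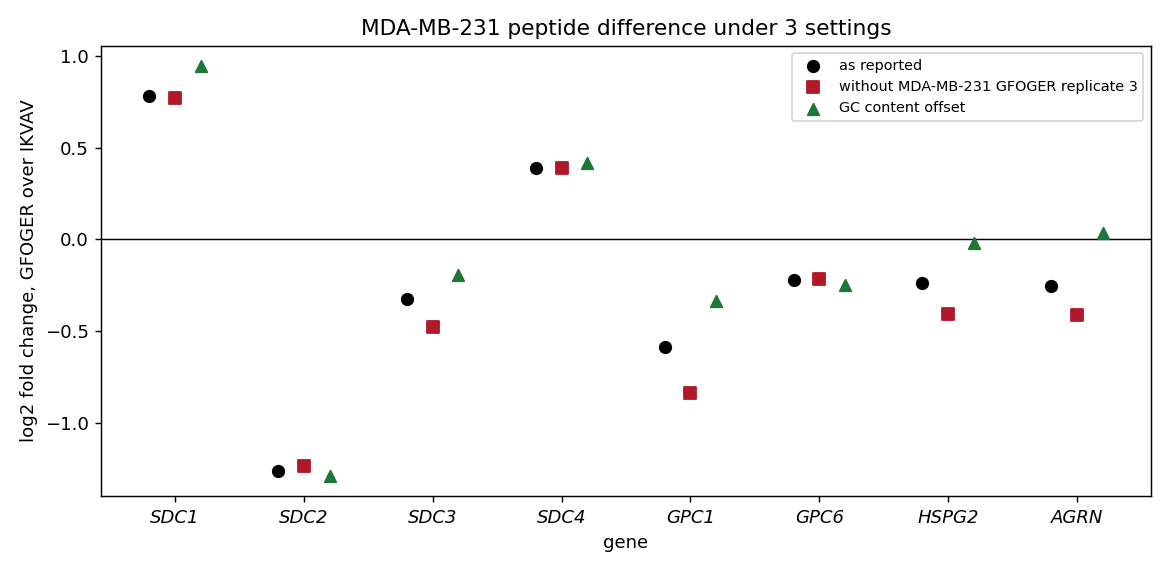
Log2 fold change of 8 genes in MDA-MB-231 cells, GFOGER over IKVAV, as reported (circles), without GFOGER replicate 3 (squares) and with GC content as an offset (triangles). SDC1, SDC2 and SDC4 kept their direction and approximate size, while HSPG2 and AGRN lay between -0.42 and 0.033.

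The same comparison in T47D cells gave no differentially expressed member. Of 10 genes tested 0 passed both thresholds, against 0.022% of all 13642 genes tested, and without the fold threshold it was also 0, against 0.044%. DESeq2 also gave 0. At an unadjusted p below 0.05 there were 4 of 10 with edgeR, namely SDC1, SDC3, GPC1 and HSPG2, against 11.2% of all genes, and 3 with DESeq2. The libraries of the peptides did not overlap for 1 of 10, SDC1, against 16% of all genes. The median log2 fold change of the 10 was -0.043, against -0.0010 for all genes.

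For SDC1 the T47D libraries were at 80.2, 89.3 and 76.9 cpm with GFOGER and 67.1, 58.2 and 76.9 cpm with IKVAV. The lowest GFOGER library was only just above IKVAV replicate 3. The log2 fold change was 0.27 ± 0.10 (SE), with an adjusted p of 0.357 by edgeR. Without IKVAV replicate 3 it was 0.36 with an adjusted p of 0.0184 by edgeR. HSPG2 was read at 27.8, 36.8 and 25.0 cpm with GFOGER and 49.3, 36.1 and 32.1 cpm with IKVAV, and the peptides overlapped. Its log2 fold change was -0.41 ± 0.17 (SE) with an adjusted p of 0.389, and -0.54 with an adjusted p of 0.0154 without IKVAV replicate 3, both by edgeR. Without that library 1054 of 13830 genes had an adjusted p below 0.05 by edgeR, against 6 with all libraries. The deposited RPKM values imply library totals of 19898878 and 21774757 for IKVAV replicates 1 and 2. They imply 5291494 to 5774966 for the GFOGER libraries, so in that fit peptide and implied total cannot be told apart.

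GPC1 was at 39.9, 44.0 and 32.5 cpm with GFOGER and 33.9, 25.5 and 28.7 cpm with IKVAV in T47D cells. Its direction was opposite to that in MDA-MB-231 cells, with a log2 fold change of 0.39 ± 0.13 (SE) and an adjusted p of 0.318 by edgeR. SDC2 was at 47.9, 45.7 and 43.8 cpm with GFOGER and 46.2, 53.1 and 48.7 cpm with IKVAV, a range in which the peptides overlapped. Its log2 fold change was -0.13 ± 0.093 (SE), with an adjusted p of 0.649 by edgeR. SDC4 was at 250 to 262 cpm with GFOGER and 233 to 267 cpm with IKVAV, and AGRN at 479 to 639 and 456 to 545 cpm. SDC3, GPC4 and GPC6 likewise overlapped between the peptides, and their log2 fold changes were -0.27, 0.14 and -0.12. GPC3 had 8 to 16 counts per library with GFOGER and 12 to 21 with IKVAV, which limits its precision.

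**Figure D4:**
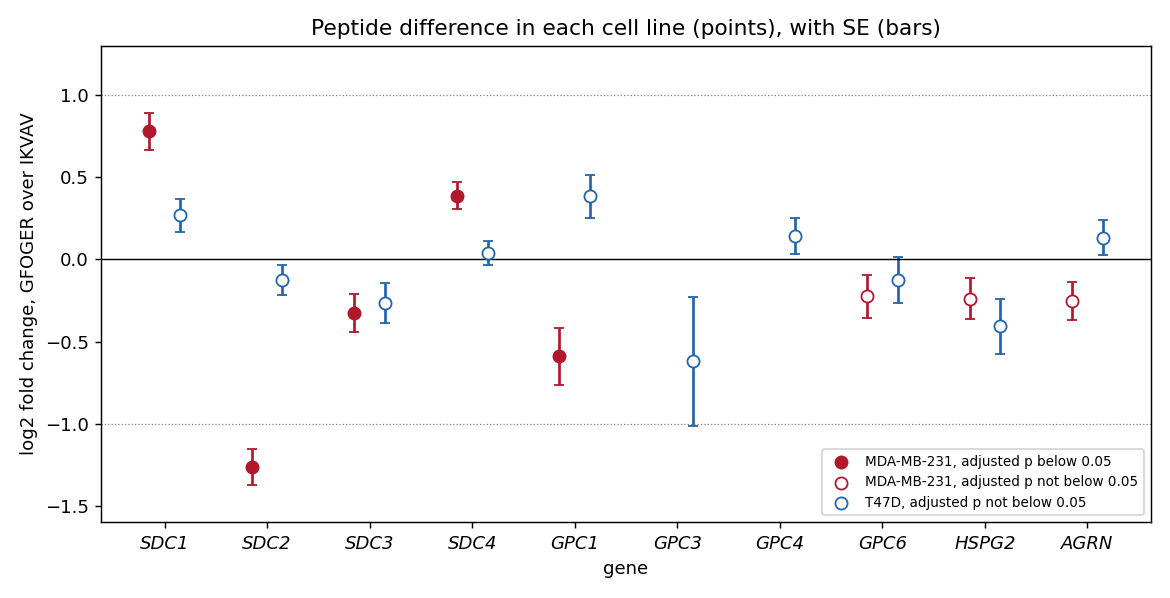
Log2 fold change of each gene, GFOGER over IKVAV, in MDA-MB-231 cells (red) and T47D cells (blue), with the SE as bars; filled points have an adjusted p below 0.05, and dotted lines mark a 2-fold change. GPC3 and GPC4 had too few counts for a test in MDA-MB-231 cells, and SDC2 was the only point beyond a dotted line.

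An interaction term in the joint fit asked whether the peptide difference itself differed between the lines. SDC2 passed both thresholds, so 1 of 10 did, against 6.42% of all 15320 genes tested. Its peptide difference in MDA-MB-231 cells minus that in T47D cells was -1.13 ± 0.14 (SE) on the log2 scale, with an adjusted p of 9.96e-06 by edgeR. GPC1 followed with -0.96 ± 0.24 (SE) and an adjusted p of 0.00743 by edgeR, with estimates of opposite sign in the lines. Its rise in T47D cells alone had an adjusted p of 0.318 by edgeR. Over 21 alternatives the interaction of GPC1 was -1.23 to -0.62. For SDC1 the interaction was 0.52 ± 0.15 (SE) with an adjusted p of 0.0195, and for SDC4 it was 0.36 ± 0.11 (SE) with an adjusted p of 0.0213, both by edgeR. Leaving out 1 library raised these to at most 0.155 and 0.149, both without MDA-MB-231 IKVAV replicate 2. For SDC3, GPC3, GPC4, GPC6, HSPG2 and AGRN the adjusted p was 0.137 or above. Without MDA-MB-231 GFOGER replicate 3 the interaction was -0.55 for AGRN, with an adjusted p of 0.00674, and -1.23 for GPC1, with an adjusted p of 0.000165 by edgeR. In that fit the MDA-MB-231 peptides cannot be told apart from the GC deviation of their libraries.

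Next, the cell lines were compared over both peptides, as MDA-MB-231 relative to T47D. SDC3 and HSPG2 were higher in MDA-MB-231 cells by 6.40-fold and 5.54-fold, and GPC4 and GPC3 were almost absent from them. Thus 4 of 10 genes were differentially expressed, against 46.3% of all 15320 genes tested, with 2 higher against 23.7% and 2 lower against 22.6%. Averaged over the peptides the remaining 6 differed by less than 2-fold, and the median log2 difference of the 10 was -0.25, against -0.015 for all genes. Differences between lines compare a single line of each type and cannot be told apart from other differences between these lines.

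SDC3 was at 20.1 to 30.1 cpm in the 6 T47D libraries, and at 123 to 173 cpm in the 5 MDA-MB-231 libraries. The lines did not overlap in either peptide. Its log2 difference was 2.68 ± 0.090 (SE), with an adjusted p of 2.06e-16 by edgeR. HSPG2 was at 25.0 to 49.3 cpm in T47D cells and 147 to 214 cpm in MDA-MB-231 cells, also without overlap. Its log2 difference was 2.47 ± 0.12 (SE), with an adjusted p of 9.12e-14 by edgeR. AGRN, the other basement membrane member, did not differ detectably, with a log2 difference of -0.017 ± 0.088 (SE) and an adjusted p of 0.864 by edgeR. With GC content as an offset the log2 difference of AGRN was 0.43 with an adjusted p of 1.81e-08 by edgeR. That offset also removes any difference between the lines that follows GC content, so 0.43 is not a corrected estimate.

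GPC4 and GPC3 are neighbors on the X chromosome, from 132435064 to 132549205 and from 132669776 to 133119673, with 120570 bases and 0 genes of the table between them. GPC4 had 340, 329 and 349 counts in the T47D IKVAV libraries and 373, 404 and 420 in the T47D GFOGER libraries. In MDA-MB-231 cells it had 1 and 3 counts with IKVAV and 0, 1 and 1 with GFOGER. Over all libraries these were 2215 reads in T47D and 6 in MDA-MB-231, a ratio of 313 after scaling to library size (95% exact binomial interval 144 to 854). GPC3, known as a fetal liver gene that returns in liver cancer, had 19, 21 and 12 counts in the T47D IKVAV libraries and 16, 8 and 12 in the GFOGER libraries, against 0 or 1 in every MDA-MB-231 library. That was 88 reads against 2, a ratio of 37.3 (95% exact binomial interval 10.0 to 313). The pair therefore differed in the same direction, and the level of GPC3 in T47D cells was low. The adjusted p from edgeR was 5.34e-18 for GPC4 and 6.41e-07 for GPC3.

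Of the other members, SDC1 was lower in MDA-MB-231 cells by -0.48 ± 0.076 (SE) on the log2 scale, GPC1 by -0.64 ± 0.12 and GPC6 by -0.70 ± 0.10, and SDC4 was higher by 0.37 ± 0.053. Their adjusted p from edgeR were 8.72e-06, 6.94e-05, 2.34e-06 and 2.03e-06. For GPC1 and SDC1 these values depended on the peptide. Within GFOGER the log2 difference of GPC1 was -1.12 with an adjusted p of 2.91e-06, which passed both thresholds, and within IKVAV it was -0.15 with an adjusted p of 0.440, both by edgeR. For SDC1 it was -0.22 within GFOGER, with an adjusted p of 0.0525, and -0.74 within IKVAV, with an adjusted p of 9.78e-06 by edgeR. SDC2 changed direction with the peptide. Averaged over peptides its log2 difference between the lines was 0.025 ± 0.068 (SE), with an adjusted p of 0.742 by edgeR, but it was -0.54 within GFOGER, lower in MDA-MB-231 cells, and 0.59 within IKVAV, higher in them. The adjusted p from edgeR within each peptide were 2.27e-05 and 2.07e-05.

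A wider set of 116 genes in 10 lists was followed for the same pathway, from chain synthesis to the ligands that bind the chains. The lists were chosen with earlier results of these data known, so shares above those of all genes are not independent evidence. Between the peptides, 20 of the 85 that could be tested in MDA-MB-231 cells passed both thresholds, against 9.57% of all genes, with 8 higher in GFOGER against 3.12% and 12 lower against 6.46%. In T47D cells 0 of 76 were, with edgeR and with DESeq2, and 8 had an unadjusted p below 0.05 with edgeR, against 11.2% of all genes. List genes said to rise or fall had an adjusted p below 0.05, and those that did so by less than 2-fold were chosen for naming after their values were seen. Without GFOGER replicate 3, 19 of 84 passed both thresholds in MDA-MB-231 cells, and with GC content as an offset 19 of 85 did. Without IKVAV replicate 3, 1 did in T47D cells, WNT5A, at -1.35 with an adjusted p of 0.0413 by edgeR. In that fit peptide and the library total implied by RPKM cannot be told apart.

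Among 9 other heparan sulfate proteoglycans, 7 were tested in MDA-MB-231 cells, 1 rose and 3 fell by more than 2-fold. COL18A1, the basement membrane collagen from which endostatin is cut, was at 91.4, 85.1 and 125 cpm with GFOGER and 285 and 261 cpm with IKVAV. Its log2 fold change was -1.45 ± 0.13 (SE), with an adjusted p of 2.07e-07 by edgeR. The glypican GPC2 had 1, 3 and 3 counts with GFOGER and 29 and 33 with IKVAV, a log2 fold change of -3.76 ± 0.54 (SE). SPOCK3, a testican, had 11 to 25 counts with GFOGER and 65 to 89 with IKVAV. SRGN, the core protein of secretory granules, rose by 1.53 ± 0.13 (SE) on the log2 scale. The median log2 fold change of the 7 was -0.92.

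Chondroitin and dermatan sulfate proteoglycans had 5 of 12 genes tested, of which 1 rose and 2 fell by more than 2-fold. CSPG4, a membrane proteoglycan of melanoma and pericytes, was at 45.2 ± 2.83 cpm with GFOGER (SD, n = 3) and 13.3 ± 0.906 cpm with IKVAV (SD, n = 2). FMOD, a small proteoglycan that binds collagen fibrils, had 23, 28 and 30 counts with GFOGER and 224 and 223 with IKVAV, and LUM, of the same family, had 18 to 27 and 45 to 50. LUM was also 1 of the 5 fibroblast markers given for SDC2.

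Genes that build the chains were also compared between the peptides. Of 9 tested genes of the linkage region and chain polymerization 0 passed both thresholds in MDA-MB-231 cells with edgeR and 0 with DESeq2, while 5 had an unadjusted p below 0.05 with either tool, against 50.2% of all genes with edgeR and 47.1% with DESeq2. EXTL3 and FAM20B, at 0.36 and 0.29, passed the adjusted threshold at any fold. Of 14 tested genes of sulfation and epimerization 2 rose and 1 fell by more than 2-fold, and HS6ST1 and NDST2 fell by less, with log2 fold changes of -0.67 and -0.40. PAPSS2, which makes the sulfate donor, was at 70.5 ± 2.50 cpm with GFOGER (SD, n = 3) against 33.9 ± 5.73 cpm with IKVAV (SD, n = 2) and rose, and the sulfotransferase HS3ST5 had 20 to 25 counts with GFOGER and 1 or 2 with IKVAV. NDST3, a deacetylase and sulfotransferase, had 3 to 7 counts with GFOGER and 32 and 62 with IKVAV. The other 11 sulfation genes were not called, among them PAPSS1, NDST1 and HS3ST1. Their log2 fold changes were 0.11, 0.17 and 0.037, with adjusted p of 0.426, 0.140 and 0.861 by edgeR. PAPSS1 was at 75.6 cpm with GFOGER and 69.7 cpm with IKVAV. Of the lysosomal enzymes that degrade the chains, 2 of 8 fell by more than 2-fold, IDUA and ARSG, with log2 fold changes of -1.16 ± 0.16 (SE) and -1.25 ± 0.26 (SE). All 8 log2 fold changes were below 0, with a median of -0.41, and 7 of the 8 had an adjusted p below 0.05, against 42.9% of all genes in either direction. IDUA overlaps SLC26A1 and ARSG overlaps SLC16A6 in the table, and the strand option of the counting is not given in the sources used here. Of 2 tested genes of extracellular editing 0 were called with edgeR or DESeq2, and 1 had an unadjusted p below 0.05.

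Proteases that shed core proteins included 2 of 6 tested genes that rose by more than 2-fold, the urokinase gene PLAU and the gelatinase gene MMP9. By less than 2-fold ADAM17 and MMP14 rose and MMP16 fell, with log2 fold changes of 0.42, 0.36 and -0.88. PLAU was at 562 ± 41.8 cpm with GFOGER (SD, n = 3) and 169 ± 14.3 cpm with IKVAV (SD, n = 2) and overlaps C10orf55 in the table. MMP9 was at 10.3 ± 1.17 cpm with GFOGER (SD, n = 3) and 4.76 ± 1.64 cpm with IKVAV (SD, n = 2). Among cytoplasmic partners of syndecans 0 of 9 were called with edgeR or DESeq2, and 7 had an unadjusted p below 0.05, against 50.2% of all genes with edgeR. Of 8 tested partners of agrin and perlecan 1 rose by more than 2-fold, MUSK, the kinase of the agrin receptor complex in muscle, which had 186, 199 and 204 counts with GFOGER and 36 and 51 with IKVAV. Its log2 fold change was 2.07 ± 0.21 (SE), with an adjusted p of 1.02e-06 by edgeR.

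Of 17 tested growth factors and cytokines that bind heparin, 1 rose and 4 fell by more than 2-fold, with a median of -0.44. VEGFA, SLIT2, TFPI and SHH fell by less, with log2 fold changes of -0.52, -0.57, -0.44 and -0.75. HBEGF, an epidermal growth factor receptor ligand, was at 128 ± 2.54 cpm with GFOGER (SD, n = 3) and 53.6 ± 0.222 cpm with IKVAV (SD, n = 2). MDK, the growth factor midkine, fell from 62.6 ± 8.13 to 11.7 ± 1.36 cpm, a log2 fold change of -2.43 ± 0.14 (SE) with an adjusted p of 1.22e-09 by edgeR. BMP4 fell from 499 ± 8.37 to 228 ± 21.2 cpm and PDGFA from 20.1 ± 1.84 to 8.30 ± 0.607 cpm. WNT5A fell by -1.37 ± 0.46 (SE) on the log2 scale, on 7 to 14 counts with GFOGER and 18 and 36 with IKVAV. The interaction with the cell line passed both thresholds for 11 of 91 list genes, against 6.42% of all 15320 genes tested. The 11 included COL18A1, GPC2, CSPG4, FMOD, PLAU, MDK, BMP4 and PDGFA.

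**Figure D5:**
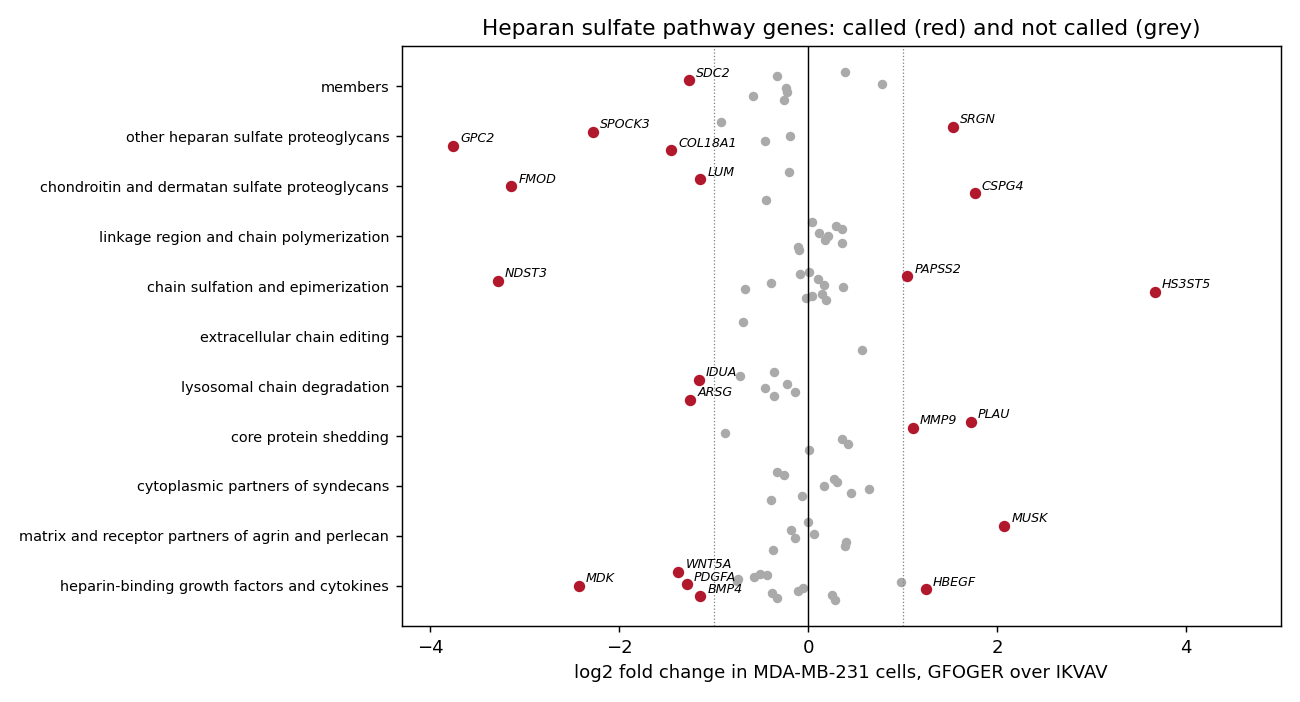
Log2 fold change in MDA-MB-231 cells, GFOGER over IKVAV, of every tested gene of the 10 members (top row) and of the 10 pathway lists, with differentially expressed genes in red and named; dotted lines mark a 2-fold change. The red points of the lists number 8 to the right and 12 to the left.

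Between the lines, 63 of 91 tested list genes were differentially expressed, against 46.3% of all genes. Of these 48 had their higher level in MDA-MB-231, against 23.7%, and 15 in T47D, against 22.6%. The same shares of all genes apply to the counts by list that follow. A gene could pass the filter of the joint fit through a single line, so these counts partly reflect where genes are high. NRP1, a co-receptor for vascular endothelial growth factor and semaphorins that can carry heparan sulfate, was at 791 and 1080 cpm on average in MDA-MB-231 cells with GFOGER and IKVAV and at 1.34 and 1.26 cpm in T47D cells, and 6 of 7 tested heparan sulfate proteoglycans of its list were higher. SPOCK1 had 579 reads in MDA-MB-231 against 25 in T47D, a ratio of 27.3 (95% exact binomial interval 18.3 to 42.6). SPOCK3 had 205 reads against 1, a ratio of 242 (95% exact binomial interval 42.9 to 9599). Among chondroitin and dermatan sulfate proteoglycans 3 were higher and 3 lower of 7, with LUM and CSPG4 higher by 4.48 and 3.62. BGN had 0 reads in MDA-MB-231 against 85 in T47D, so it was at least 24.0-fold lower against a floor of 3 reads over the line, with an exact binomial lower limit of 19.1.

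Chain synthesis also differed between the lines. XYLT1, which starts the linkage region, had 7 reads in MDA-MB-231 against 832 in T47D. Its level in T47D was 0.943 and 0.868 cpm per kilobase with GFOGER and IKVAV. The related XYLT2 was read in both lines and was higher than XYLT1 in each. It was at 11.4 and 11.0 cpm per kilobase in MDA-MB-231 and 44.6 and 33.8 in T47D. EXT1, of the chain polymerase, was higher by 3.11 ± 0.060 (SE) in MDA-MB-231 cells and EXTL1 lower by -3.10 ± 0.38. Of 11 linkage and polymerization genes 3 were higher and 3 lower, and of 15 sulfation genes 7 were higher and 2 lower. HS3ST1 had 1523 reads in MDA-MB-231 against 2 in T47D, a ratio of 898 (95% exact binomial interval 248 to 7425). HS3ST5 had 69 reads against 0, at least 27.1-fold higher against the same floor, with an exact binomial lower limit of 21.5, and NDST4 had 4 against 80. The called editing enzymes went in opposite directions. The extracellular sulfatase SULF1 was lower in MDA-MB-231 cells, with 12 reads against 3162, a T47D to MDA-MB-231 ratio of 223 (95% exact binomial interval 128 to 433). The heparanase HPSE was higher in them, with 1228 reads against 76, a ratio of 19.1 (interval 15.1 to 24.4). Of 8 lysosomal enzymes 2 were higher and 2 lower, led by ARSG at -2.55, IDS at 2.34 and IDUA at 1.22.

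All 6 tested genes of the 8 listed for shedding were called higher in MDA-MB-231 cells, against 23.7% of all genes. MMP14 had 91851 reads against 181 in T47D, PLAU 34411 against 85 and MMP9 684 against 29. The ratios were 599, 478 and 27.8 (95% exact binomial intervals 517 to 697, 386 to 598 and 19.2 to 41.9). MMP9 did not pass the filter in T47D cells alone, where it had 4 to 11 counts with GFOGER and 2 to 3 with IKVAV. It thus entered the joint fit through MDA-MB-231, where it was high. Of 9 tested cytoplasmic partners 3 were higher and 1 lower, with protein kinase C alpha (PRKCA) at 5.42, syntenin (SDCBP) at 2.17 and CASK at 1.53. Of 8 partners of agrin and perlecan 6 were higher, among them ECM1 at 6.84, ITGA2 at 4.02 and MUSK with 676 reads against 3, a ratio of 266 (95% exact binomial interval 90.6 to 1292). Of 17 heparin-binding ligands 11 were higher and 3 lower. SLIT2 had 4627 reads in MDA-MB-231 against 9 in T47D, a ratio of 607 (95% exact binomial interval 319 to 1327). IL8 had 21296 against 51, a ratio of 493 (interval 375 to 662). CXCL12 was lower, with 56 against 52412, a T47D to MDA-MB-231 ratio of 793 (interval 611 to 1050). Its level was 0.602 and 0.789 cpm in MDA-MB-231 against 502 and 563 cpm in T47D, with GFOGER and IKVAV.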

How the data were processed

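Gene counts and RPKM values were deposited by the authors for 11 of 12 libraries, and the counts were used. Poly-A libraries were aligned to hg19, and the submitters' processing notes name FastQC, Trim Galore 0.4.4, TopHat2 2.1.0, SAMtools 1.4, bedtools 2.17, HTSeq 0.6.1p1 and edgeR 3.16.5. The strand option of the counting is not given in the sources used here. RPKM values deposited by the authors imply library totals of 5191201 to 5774966 in 5 libraries and 19898878 to 22840524 in 6, and served only to define these sets for an alternative fit. The 5 were MDA-MB-231 IKVAV replicate 1, T47D IKVAV replicate 3 and all T47D GFOGER libraries.

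Of 24656 entries, 1288 repeated a symbol, of which 4 had counts. Entries on main chromosomes were kept ahead of those on other sequences, and among these the entry with most counts, leaving 23368 genes. Low counts were filtered with edgeR's filterByExpr, and counts were TMM-normalized and tested with the quasi-likelihood test of edgeR 4.0.16 in R 4.3.3, with a prior count of 2 for levels on the log2 scale. Each cell line was fitted alone for the peptide comparison, and both together for the cell lines and the interaction. Adjusted p-values are Benjamini-Hochberg values over all genes tested in a comparison, with calls at an adjusted p below 0.05 and a fold over 2. Levels per length used cpm divided by the gene model length that the table lists. The scripts were tested on simulated data. Samples were grouped by the labels. Replicate numbers were shared between peptides and were not used as pairs in the main fits. Correlations of same-numbered deviations were -0.12 to 0.0501, which cannot decide on pairing with so few libraries in a group.

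The 10 genes and the pathway lists were chosen with earlier results of these data known. Named from each list were the called genes of the MDA-MB-231 peptide comparison with the largest change, at most 5, every called gene in T47D cells, and the 3 called genes with the largest difference between the lines. For SDC2 the 3 most similar genes were named among those averaging 2 or more on the log2 cpm scale. Alternatives were DESeq2 1.42.0, limma 3.58.1 with voom and sample quality weights, other normalizations and filters, a 2-fold threshold inside the test, the replicate block, the RPKM set as a term, each peptide alone, each library left out and, chosen after the data were seen, a GC content offset. GC content was known for 97.7% of well-expressed genes.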

Additional observations from a re-analysis of the deposited data

Results flagged for a closer look

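The peptide difference of SDC2 differed between the cell lines by a test of the difference itself. In GFOGER relative to IKVAV, the log2 fold change of MDA-MB-231 was -1.26, that of T47D was -0.13, and the interaction was -1.13 ± 0.14 (SE) with an adjusted p of 9.96e-06 by edgeR. SDC2 was lower with GFOGER in 3 of 3 MDA-MB-231 libraries than in both IKVAV libraries, and the T47D libraries of the peptides overlapped.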

How the results depend on the processing

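The fall of SDC2 in MDA-MB-231 cells and the rises of SDC1 and SDC4 kept their direction in all 16 alternatives, and SDC2 was called in 15 of them. With the 2-fold threshold inside the test 0 of the 10 genes were called in MDA-MB-231 cells and 0 in the interaction. The number with an adjusted p below 0.05 in MDA-MB-231 cells was 3 with the RPKM set as a term and 2 to 7 with each library left out, lowest without IKVAV replicate 2; the lone IKVAV library is then assumed to vary like the others. In T47D cells it was 3 with voom and 0 to 2 with each library left out, the 2 being without IKVAV replicate 3. Between the lines 2 were called when at least 10 counts were required in every library, since GPC3 and GPC4 then leave the test. In the interaction 2 were called with voom, and 1 to 2 with each library left out. GPC1 was the added gene without MDA-MB-231 IKVAV replicate 2 or GFOGER replicate 3 and without T47D IKVAV replicate 1 or GFOGER replicate 3.

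With the replicate block 2 genes were called in the interaction, namely SDC2 and GPC1, and SDC2 was -1.24 in MDA-MB-231 cells. There 7 genes had an adjusted p below 0.05, as they had without GFOGER replicate 3, which has no IKVAV partner. For SDC1 and SDC4 the interaction had adjusted p of 0.0565 and 0.0704 by edgeR with the block.

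Other values changed sign, and the cause was not tested. With the GC content offset AGRN was 0.033 for the peptides in MDA-MB-231 and -0.015 for those in T47D, 0.43 between the lines and 0.014 in the interaction, SDC2 was -0.21 between the lines, and SDC3 was 0.12 in the interaction. With the RPKM set as a term SDC4 was -0.051 in T47D cells, and the interaction was -0.92 for GPC3, 0.32 for GPC6 and -0.014 for HSPG2. Between the lines SDC2 was -0.060 with upper-quartile normalization and -0.54 within GFOGER, and AGRN was 0.0053 with at least 10 counts in every library and 0.17 within IKVAV. With each library left out, GPC6 in T47D cells was -0.23 to 0.064, AGRN between the lines -0.090 to 0.040, and the interaction was -0.21 to 0.012 for SDC3, -1.76 to 2.45 for GPC3, -0.28 to 0.0066 for GPC6 and -0.039 to 0.35 for HSPG2. GPC3 and GPC4 had at most 3 counts in any MDA-MB-231 library, which limits their interaction.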

Other observations

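The genes whose level followed that of SDC2 most closely over the 11 libraries, after the mean of each cell line was subtracted, were TMX4 with a Pearson correlation of 0.993, MB with 0.991 and CFB with 0.991, among 11930 genes. The libraries share conditions and depth, so this is a description. Without T47D IKVAV replicate 3, list genes that had an adjusted p below 0.05 in T47D cells included SULF1 at -0.78 with an adjusted p of 0.00157 by edgeR, against -0.56 and 0.345 with all libraries. In the fit without that library, peptide and the library total implied by RPKM cannot be told apart.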
